A study of Mus musculus with 4 samples.

Results

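The genes described here are the interferon-inducible GTPases and other genes of the interferon gamma type response: 10 guanylate-binding proteins, 7 immunity-related GTPases, 2 transcriptional regulators, 3 genes of peptide transport and loading, 5 immunoproteasome genes, 4 other gamma targets and the 2 receptor chains. They were chosen by name, all 33 were among the 32285 features of the count matrices, and 32 reached 10 counts per 1000000 unique molecular identifiers (UMIs), abbreviated CPM, in at least 1 library. Serpina3f was the 1 gene that did not. The cells were regulatory T (Treg) cells, a CD4+ T cell type that restrains immune responses and depends on the transcription factor Foxp3. They were profiled with 10x Genomics 5' single-cell RNA sequencing in 4 libraries: liver and spleen at 12 days of age (neonatal) and liver and spleen at 7 weeks (given the stage "aged" by the submitters). All animals were C57BL/6 mice with Foxp3 tagged by GFP, and lymphocytes were enriched on CD4 beads and sorted as CD4+ Foxp3GFP+. The 12-day mice are further described as Foxp3GFP-Cre with a Rosa26 lox-stop-lox YFP reporter, so Cre and YFP follow Foxp3 in them. That genotype is not stated for the 7-week mice, and the number and sex of mice behind a library are not stated.

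There was 1 library per age and tissue. No difference therefore has a replicate check, no test between groups was made and no p-value is given. Intervals in brackets are exact 95% intervals for counting error only. A gene counted as higher or lower where it reached 10 CPM in at least 1 of the 2 libraries compared and differed by at least 1.5-fold between them. The share of all genes that met the same rule is given beside the first count of each comparison.

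Interferon gamma binds a receptor made of Ifngr1 and Ifngr2 and signals through the kinases Jak1 and Jak2 to genes with gamma-activated sites (GAS). These include the gene of the transcription factor Irf1, which acts through interferon-stimulated response elements (ISRE). Guanylate-binding proteins and immunity-related GTPases act against pathogens inside cells, the immunoproteasome and the Tap transporter supply peptides to MHC class I, and Nlrc5 activates class I genes. Type I interferons also induce many of these genes, so their RNA does not tell the inducing cytokine.

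After filtering, the libraries held 5357 cells in liver and 5782 in spleen at 12 days, and 2373 in liver and 5704 in spleen at 7 weeks, with 28943497, 30168319, 7122239 and 18825622 UMIs. Foxp3 lay between 410 and 458 CPM in the 4 libraries, and all 5 T cell and all 6 Treg markers passed 10 CPM in each. Other features differed between libraries: the sum of 16 effector markers was 10581 CPM in liver and 4273 in spleen at 12 days, and 4735 in liver and 2149 in spleen at 7 weeks. In the same order, 14 cycling markers summed to 1704, 936, 488 and 391 CPM. The female-specific Xist was at 302 CPM in both neonatal libraries and at 128 and 150 CPM in 7-week liver and spleen. Effector and cycling markers therefore move with tissue as well as with age, and Xist moves with age. Their part in the results below was not tested, except where values within clusters are given. Pairs of libraries shared between 16 and 48 cell barcodes, at most 0.896% of a library's cells.

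The guanylate-binding proteins were highest in Treg cells of 7-week liver and lowest in those of neonatal spleen. Summed over the 10 genes they reached 525 CPM [517 to 533] in liver and 265 [259 to 271] in spleen at 12 days, and 951 [928 to 974] in liver and 586 [575 to 597] in spleen at 7 weeks. Each of the 10 had its highest level in 7-week liver. The 2 tissues kept the same order at both ages, and 7-week cells were above neonatal cells of the same tissue.

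Gbp7 was the most abundant of the family, at 144 CPM in liver and 62.5 in spleen at 12 days, and 202 in liver and 131 in spleen at 7 weeks. Its liver over spleen ratio was 2.30 [2.18 to 2.43] at 12 days and 1.55 [1.45 to 1.65] at 7 weeks. Gbp2, in the same order of libraries, was at 88.4, 45.6, 142 and 84.7 CPM. For Gbp2, neonatal liver and 7-week spleen overlapped within counting error. Gbp3 was at 78.2, 28.6, 87.1 and 53.2 CPM, so that the liver levels at the 2 ages lay close together and neonatal spleen stood lowest. Gbp5, which promotes inflammasome activity, was at 20.6, 10.6, 30.6 and 24.9 CPM. These 4 genes and Gbp2b lie side by side on chromosome 3 (GRCm38).

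The other cluster of the family is on chromosome 5, and there too each 7-week level stood above the neonatal level of the same tissue. Gbp4 was at 65.1 CPM in liver and 37.8 in spleen at 12 days, and 136 in liver and 76.1 in spleen at 7 weeks. Gbp6 was at 58.1, 27.9, 133 and 79.3 CPM in that order, and Gbp10 at 11.2, 4.24, 29.3 and 19.7 CPM. Gbp8 (28.3, 21.5, 80.2 and 49.0 CPM) and Gbp9 (30.3, 25.8, 82.1 and 53.8 CPM) differed least between the neonatal tissues. Counts of single genes in this cluster are uncertain: 81.1% of the 31-base stretches of Gbp6 transcripts and 60.7% of those of Gbp10 also occur in other listed genes, mostly in each other, and Gbp4, Gbp8 and Gbp9 overlap in the annotation. The sources used here do not say how shared reads were counted.

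Gbp2b was nearly confined to the 7-week libraries, with 1.11 CPM in liver and 0.232 in spleen at 12 days, and 28.2 in liver and 14.9 in spleen at 7 weeks. It was 25.5-fold lower [17.5 to 38.3] in neonatal than in 7-week liver and 64.1-fold lower [30.7 to 161] in neonatal than in 7-week spleen. The neonatal values rest on 32 and 7 UMIs, and 10 cells held 65.6% and 100% of them.

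The immunity-related GTPases followed the same order of libraries. Their 7 genes summed to 587 CPM [578 to 596] in liver and 405 [398 to 412] in spleen at 12 days, and 1221 [1195 to 1246] in liver and 827 [814 to 840] in spleen at 7 weeks, and each of the 7 was highest in 7-week liver. Iigp1, which acts at the vacuoles of intracellular parasites, had the widest range, at 18.5, 7.03, 110.5 and 54.8 CPM. It was 5.98-fold lower [5.35 to 6.68] in neonatal than in 7-week liver and 7.79-fold lower [6.72 to 9.08] in neonatal than in 7-week spleen.

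The regulatory members of this family, which control the other immunity-related GTPases, are Irgm1, Irgm2 and Igtp. Irgm1 was at 37.1 CPM in liver and 38.6 in spleen at 12 days, and 102 in liver and 64.4 in spleen at 7 weeks, and the neonatal tissues did not differ beyond counting error. Irgm2 was at 11.3, 7.43, 39.3 and 22.4 CPM in this order. Igtp was the most abundant of the 3, at 153, 105 and 287 CPM in neonatal liver, neonatal spleen and 7-week liver and 178 CPM in 7-week spleen. Among the others, Tgtp1 was at 29.9, 20.7, 101 and 67.9 CPM and Tgtp2 at 67.4, 38.8, 132 and 94.3 CPM. Tgtp1 and Tgtp2 are near-identical: 83.2% and 93.3% of their 31-base stretches are shared with the other, so the split between them is uncertain. Ifi47 was the most abundant GTPase of both families, at 270 CPM [264 to 276] in liver and 187 [182 to 192] in spleen at 12 days, and 450 [435 to 466] in liver and 345 [337 to 353] in spleen at 7 weeks.

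**Figure D1:**
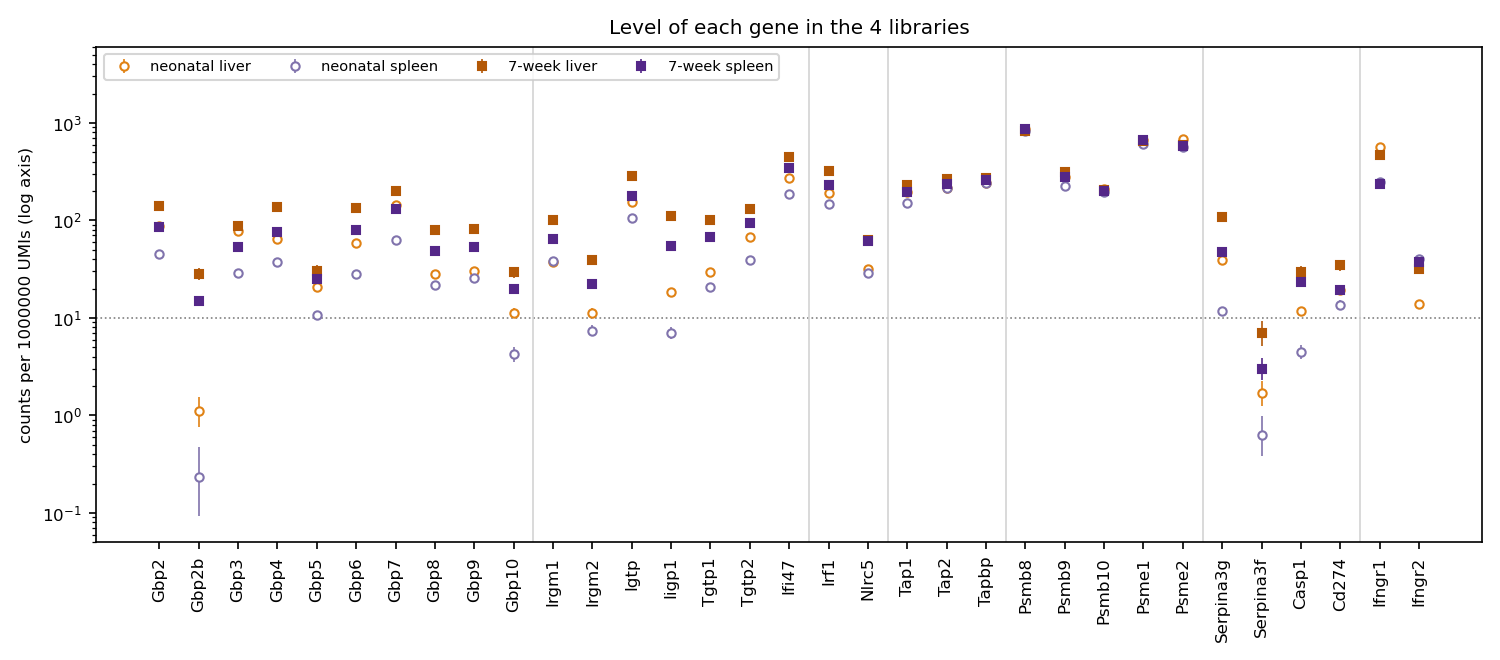
Level of each of the 33 genes in the 4 libraries, as counts per 1000000 UMIs on a log axis, with exact 95% Poisson intervals (counting error only, 1 library per group). Grey lines separate the role groups and the dotted line marks 10 CPM. All 17 GTPases are highest in 7-week liver, while the 5 immunoproteasome genes lie close together in all libraries.

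The promoters of these GTPases are shown because the genes moved together across the 4 libraries. RefSeq promoters (GRCm38.p6, 250 bases before to 50 after the start) were available for 25 of the 33 genes. The GAS motif searched was TTCNNNGAA, which reads the same on both strands, and the ISRE core was GAAA, any 2 bases and GAAA, on either strand. GAS matches occurred in 8.30% and ISRE cores in 3.44% of 32851 promoters, and both together in 0.454%. Counted by gene, where any promoter entry of a gene suffices, the shares were 9.55%, 3.99% and 0.540% of 27025 genes. Among the 25 genes, 10 had a GAS match, 11 an ISRE core and 6 both. An ISRE core was found for 5 of 5 guanylate-binding proteins and 5 of 6 immunity-related GTPases with an entry. In Igtp, Irgm2, Tgtp1 and Tgtp2 the ISRE core began 11 bases after the start of the GAS match. That spacing was noticed in these sequences and then counted: it occurs in 5 of the 32851 promoters, the fifth being that of Gm12185, another gene of the GTPase lists. A match is a run of letters, not a measured binding site. The 4 paired stretches follow, 5′ to 3′ on the gene's strand, with the GAS match and the ISRE core in capitals.

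Igtp (chr11:58199496-58199545, plus strand): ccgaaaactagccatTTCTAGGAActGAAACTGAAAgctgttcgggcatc
Irgm2 (chr11:58214887-58214936, plus strand): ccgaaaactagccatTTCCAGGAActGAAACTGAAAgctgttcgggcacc
Tgtp1 (chr11:48992300-48992349, minus strand): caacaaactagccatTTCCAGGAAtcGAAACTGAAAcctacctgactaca
Tgtp2 (chr11:49064259-49064308, minus strand): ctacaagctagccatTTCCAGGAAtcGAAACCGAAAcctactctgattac

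The 250 bases before the start of Gbp7, the most abundant guanylate-binding protein, hold 2 GAS matches and 1 ISRE core on the opposite strand. Irf1 has 2 entries: the one shown holds 1 GAS match and no ISRE core, and the other holds neither. The bases before the start of Serpina3g hold 1 GAS match. Matches and age differences did not go together in every gene. Of the 25 genes 10 had neither motif, among them Ifi47 and Casp1, which were lower at 12 days in both tissues, and Cd274, which was lower in liver. Psmb8, which did not differ by 1.5-fold in any comparison over all cells, had a GAS match. Capitals again mark the matches.

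Gbp7 (chr3:142530086-142530335, plus strand): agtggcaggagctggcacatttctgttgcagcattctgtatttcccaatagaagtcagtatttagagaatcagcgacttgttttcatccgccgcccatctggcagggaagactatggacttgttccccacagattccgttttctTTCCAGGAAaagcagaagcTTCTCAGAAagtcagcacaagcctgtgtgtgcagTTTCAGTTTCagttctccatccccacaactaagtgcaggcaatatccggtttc
Irf1 (chr11:53769764-53770013, plus strand): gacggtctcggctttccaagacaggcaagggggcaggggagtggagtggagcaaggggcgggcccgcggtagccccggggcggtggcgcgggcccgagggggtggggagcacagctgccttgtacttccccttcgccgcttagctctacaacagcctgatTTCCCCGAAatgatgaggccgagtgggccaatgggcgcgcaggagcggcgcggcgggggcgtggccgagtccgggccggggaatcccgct
Serpina3g (chr12:104235897-104236146, plus strand): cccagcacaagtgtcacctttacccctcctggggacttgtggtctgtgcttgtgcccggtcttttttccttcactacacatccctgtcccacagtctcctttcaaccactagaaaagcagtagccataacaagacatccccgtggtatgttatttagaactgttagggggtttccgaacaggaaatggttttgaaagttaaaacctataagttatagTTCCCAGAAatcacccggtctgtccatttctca

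The regulators also stood higher at 7 weeks. Irf1 was at 190 CPM [185 to 195] in liver and 149 [144 to 153] in spleen at 12 days, and 321 [308 to 334] in liver and 233 [226 to 240] in spleen at 7 weeks. Nlrc5 was at 31.9, 28.6, 62.3 and 60.9 CPM in that order, and its 7-week tissues did not differ beyond counting error. Tap1, the transporter subunit, was at 196, 151, 230.1 and 195 CPM, Tap2, its partner, at 215, 214, 266 and 234 CPM, and the loading factor Tapbp at 241, 242, 271 and 259 CPM. None of these 3 differed by 1.5-fold in any comparison over all cells.

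Over all cells of a library, the immunoproteasome and its activator did not follow the GTPases. The catalytic subunit Psmb8 was at 869 CPM in liver and 835 in spleen at 12 days, and 832 in liver and 862 in spleen at 7 weeks. Over the 5 genes the sum was 2703 [2684 to 2722], 2425 [2407 to 2442], 2586 [2549 to 2624] and 2596 [2573 to 2619] CPM in the same order. The other catalytic subunits were Psmb9, at 276, 226, 311 and 280.0 CPM, and Psmb10, at 208, 195, 206 and 202 CPM. The activator subunits were Psme1, at 671, 605, 648 and 673 CPM, and Psme2, at 678, 564, 588 and 579 CPM. No gene of the 5 differed by 1.5-fold in any comparison over all cells. Ratios this near 1 depend on the scaling: with ribosomal, mitochondrial, haemoglobin and receptor segment genes left out of the totals, the ratio of the sum in neonatal over 7-week liver went from 1.05 [1.03 to 1.06] to 1.01 [0.992 to 1.02].

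Among the other gamma targets, Serpina3g, a serine protease inhibitor of T cells, was at 39.2 CPM in liver and 11.6 in spleen at 12 days, and 108 in liver and 47.5 in spleen at 7 weeks. Its liver over spleen ratio was 3.37 [2.98 to 3.81] at 12 days and 2.27 [2.06 to 2.50] at 7 weeks. The related Serpina3f, with 1.69, 0.63, 7.02 and 3.03 CPM, had the same order of libraries at far lower levels. Casp1, the inflammasome protease, was at 11.7, 4.51, 29.6 and 23.1 CPM. Cd274, which encodes the inhibitory ligand PD-L1, was at 19.6, 13.7, 34.5 and 19.3 CPM, with neonatal liver and 7-week spleen overlapping within counting error.

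The receptor chains followed the GTPases only in part. Ifngr1 shared their higher level in liver but was not lower at 12 days than at 7 weeks. Ifngr2 was lower at 12 days in liver only and was not higher in liver than in spleen. Ifngr1 was high in liver at both ages, at 565 CPM [556 to 573] in neonatal and 471 [456 to 488] in 7-week liver against 246 [241 to 252] in neonatal and 234 [227 to 241] in 7-week spleen. Its age ratio was 1.20 [1.15 to 1.24] in liver and 1.05 [1.02 to 1.09] in spleen. Ifngr2 stood at 13.9 CPM in liver and 39.9 in spleen at 12 days, and 32 in liver and 37.9 in spleen at 7 weeks, so that neonatal liver was the low library.

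In liver over spleen at 12 days, 13 of 31 measured genes were higher by at least 1.5-fold and 1, Ifngr2, was lower, against 7.92% and 3.76% of all 7559 measured genes. At 2-fold or more 8 were higher and 1 lower, against 3.2% and 1.1% of all genes. The median log2 ratio was 0.53, beside a median of 0.00 over all genes. Of the guanylate-binding proteins 7 of 9 measured were higher, of the immunity-related GTPases 3 of 7 (Iigp1, Tgtp2 and Irgm2). The largest ratios were those of Serpina3g, Gbp3 at 2.73 [2.52 to 2.96], Gbp10 at 2.65 [2.15 to 3.27], Iigp1 at 2.63 [2.24 to 3.10] and Casp1 at 2.61 [2.13 to 3.20]. Ifngr1 was 2.29-fold higher [2.23 to 2.36], and Ifngr2 2.87-fold lower [2.56 to 3.22], in liver.

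In liver over spleen at 7 weeks, 15 of 32 measured genes were higher and 0 lower, against 5.22% and 3.04% of all 7640 genes, with a median log2 ratio of 0.57 beside 0.00 over all genes. At 2-fold or more 3 were higher and 0 lower, against 1.56% and 0.694% of all genes. The 15 were 8 of 10 guanylate-binding proteins, 4 of 7 immunity-related GTPases (Irgm1, Irgm2, Igtp and Iigp1), Serpina3g, Cd274 and Ifngr1. Iigp1 had a ratio of 2.02 [1.84 to 2.22], Gbp2b of 1.90 [1.58 to 2.28] and Gbp4 of 1.79 [1.65 to 1.95]. Without the cluster of interferon-stimulated cells, from a clustering that used these genes, 3 were higher, and the ratio of the summed guanylate-binding proteins went from 1.62 [1.57 to 1.67] to 1.24 [1.19 to 1.30]. That cluster was picked by its type I interferon genes, so leaving it out takes away cells high in the listed genes by construction. It was also effector-like, with Itgae, Gpr15 and Prg4 among its leading genes. What the count depends on was therefore not tested.

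**Figure D2:**
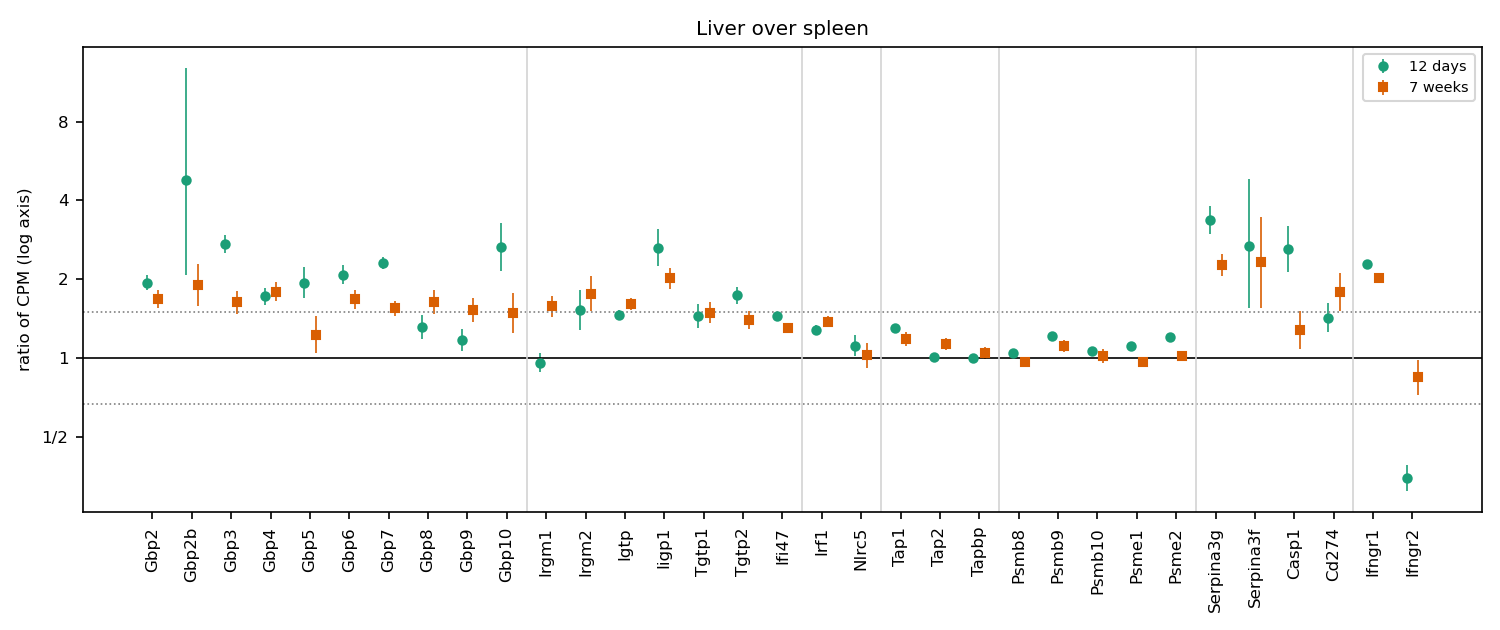
Ratio of liver over spleen for each gene at 12 days and at 7 weeks, on a log axis, with exact conditional binomial 95% intervals (counting error only). Dotted lines mark 1.5-fold in each direction. Ifngr1 and Serpina3g are above 2 at both ages, and Ifngr2 is low in liver at 12 days.

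In liver, 12 days over 7 weeks, 20 of 32 genes were lower and 0 higher, against 16.4% lower and 14.7% higher of all 7818 genes. At 2-fold or more 13 were lower and 0 higher, against 5.53% and 5.82% of all genes. The median log2 ratio was -0.86, beside 0.02 over all genes. All 7 immunity-related GTPases, 7 of 10 guanylate-binding proteins, Irf1, Nlrc5, Serpina3g, Casp1, Cd274 and Ifngr2 made up the 20. After Gbp2b and Iigp1, the lowest were Irgm2 (3.48-fold [2.96 to 4.09]) and Tgtp1 (3.38-fold [3.06 to 3.74]). Over all cells Gbp3, Gbp5 and Gbp7 stayed under 1.5-fold, between 1.11-fold and 1.49-fold lower. Without the interferon-stimulated cluster 11 genes were lower and 1 higher. The summed guanylate-binding proteins were then 1.22-fold rather than 1.81-fold lower, and the summed immunity-related GTPases 1.60-fold rather than 2.08-fold lower. That cluster, defined with these genes, held 1.59% of neonatal and 41.2% of 7-week liver cells.

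In spleen, 12 days over 7 weeks, 21 of 32 genes were lower and 0 higher, against 11.8% lower and 9.41% higher of all 7726 genes, with a median log2 ratio of -0.89 beside 0.02 over all genes. At 2-fold or more 15 were lower and 0 higher, against 3.15% and 3.16% of all genes. All 10 guanylate-binding proteins and all 7 immunity-related GTPases were among the 21, with Irf1, Nlrc5, Serpina3g and Casp1. Casp1 was 5.13-fold lower [4.22 to 6.26], Gbp10 4.64-fold [3.79 to 5.72] and Serpina3g 4.09-fold [3.61 to 4.64]. Here leaving out the interferon-stimulated cluster changed the summed guanylate-binding proteins little, from 2.21-fold to 1.94-fold lower. The 4 comparisons share libraries, so they are not independent of each other.

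**Figure D3:**
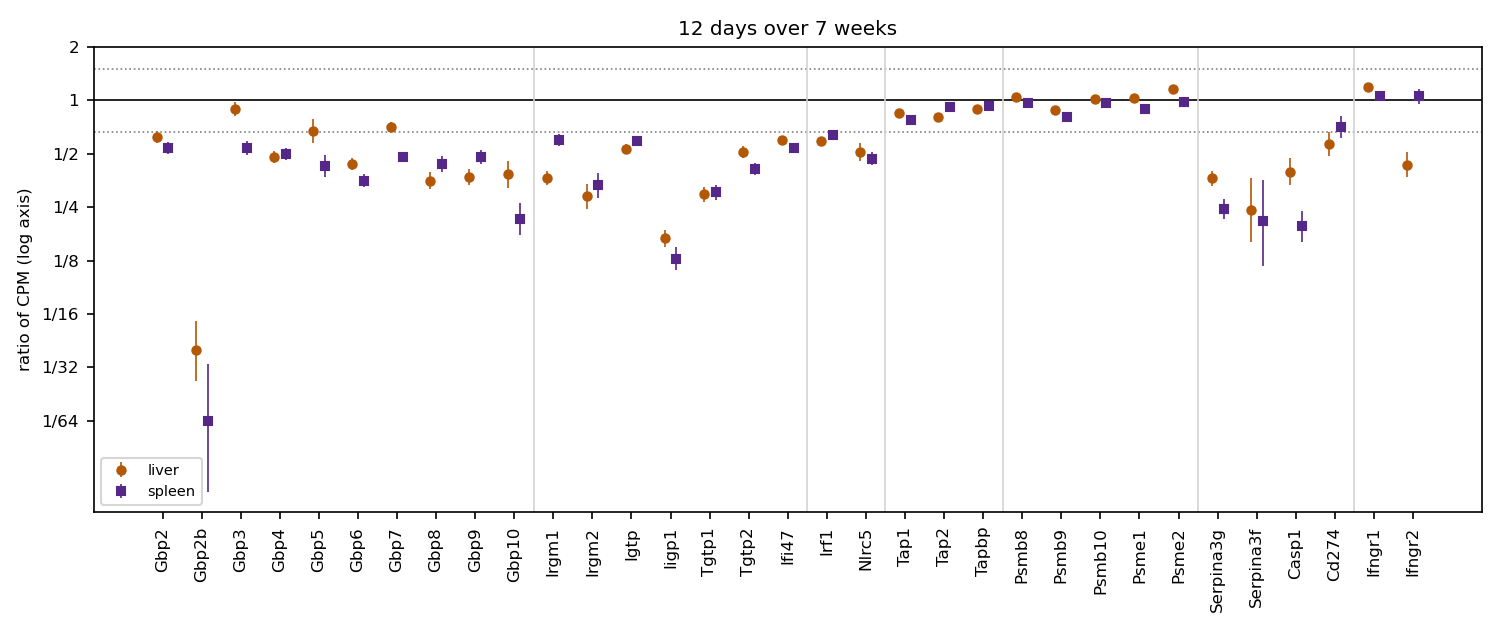
Ratio of 12 days over 7 weeks for each gene in liver and in spleen, on a log axis, with exact conditional binomial 95% intervals (counting error only). Dotted lines mark 1.5-fold in each direction. Gbp2b is lowest, all 17 GTPases are below 1 in both tissues, and the immunoproteasome genes lie near 1.

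Cells were also grouped into 13 clusters without using the listed genes or the genes of the other interferon lists. Levels were compared within clusters holding at least 50 cells in both libraries. The clusters still differed in interferon response. Cluster 5 had Gbp2b, Iigp1, Ifit3 and Oas1a among its leading genes, and 24 type I interferon genes were raised in it. Before doublets and cells of other lineages were removed, it held 52 cells in liver and 60 in spleen at 12 days. At 7 weeks it held 710 in liver and 950 in spleen. Comparisons within clusters are therefore not independent of the interferon response. Cluster 3, effector-like and with Nebl, Il1rl1 and Itgae among its leading genes, had 890 cells in liver and 578 in spleen at 12 days, and 421 in liver and 288 in spleen at 7 weeks. Its 17 GTPases summed to 758 CPM [734 to 784], 650 [624 to 676], 1882 [1820 to 1946] and 1301 [1241 to 1363] in that order. In liver all 10 guanylate-binding proteins and all 7 immunity-related GTPases of this cluster were at least 1.5-fold lower at 12 days, against 14% of all genes measured in the cluster. In spleen 9 of 9 and 6 of 7 were, against 16.2%.

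The age difference of the summed GTPases had the same direction in every cluster that could be compared, but that of single GTPases did not. The summed GTPases were lower at 12 days in 6 of 6 clusters in liver, at ratios from 0.269 to 0.745, and in 9 of 9 in spleen, from 0.391 to 0.808. The ratios closest to 1 include the cycling-like cluster 6, led by Ccna2, with 765 CPM [745 to 785] in neonatal and 1027 [935 to 1125] in 7-week liver. Gbp3, Gbp5 and Gbp7 were lower by at least 1.5-fold in 4, 5 and 4 of 6 liver clusters, and Gbp5 was higher in 1. The summed immunoproteasome genes, near 1 over all cells, were lower at 12 days within 6 of 6 liver clusters, at ratios from 0.728 to 0.951, and within 9 of 9 spleen clusters, from 0.548 to 0.985. They were lower by at least 1.5-fold in 0 of the liver and 1 of the spleen clusters. In liver, Psmb9 was lower by that much in 4 of 6 clusters, Psme2 in 2, Psmb10 in 1, and Psmb8 and Psme1 in 0. In spleen, Psmb9 was in 2 of 9, Psmb8, Psme1 and Psme2 in 1 each, and Psmb10 in 0. Tap1 was lower by that much in 4 liver and 3 spleen clusters, Tap2 in 3 and 0, and Tapbp in 0 of either. Psmb10 and Tapbp were each higher by that much in 1 spleen cluster.

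The tissue difference at 12 days was smaller within most clusters than over all cells. The summed GTPases were higher in liver in 10 of 10 clusters, but by at least 1.5-fold in 3, with a median ratio of 1.28 and a range from 1.07 to 2.16. The 10 include clusters 7 and 9, where 36.2% and 27.4% of cells had a Foxp3 UMI. Clusters low in Foxp3 held 733 and 479 cells of liver and spleen at 12 days, and 86 and 55 at 7 weeks. The guanylate-binding proteins alone were higher in 8 of 10, from 0.901 to 2.40, and the immunity-related GTPases in 10 of 10, from 1.08 to 2.05. Within that family Irgm1 was higher in liver in 2 of 10 clusters, with a median ratio of 0.760. It was higher by at least 1.5-fold in 1 and lower by that much in 2. In the effector-like cluster 2, led by Ccl5 and Gzmb, both families together summed to 1704 CPM [1679 to 1729] in neonatal liver and 1362 [1323 to 1401] in neonatal spleen, the highest neonatal levels. This cluster held 1979 cells of neonatal liver and 616 of neonatal spleen. At 7 weeks the sum was higher in liver in 6 of 6 clusters, from 1.17 in the resting-like cluster 0, led by Ly6c1 and by the interferon gene Usp18, to 2.51. Ifngr1 was higher in liver in 10 of 10 clusters at 12 days and in 6 of 6 at 7 weeks. Ifngr2 was lower in neonatal liver in 9 of 10.

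**Figure D4:**
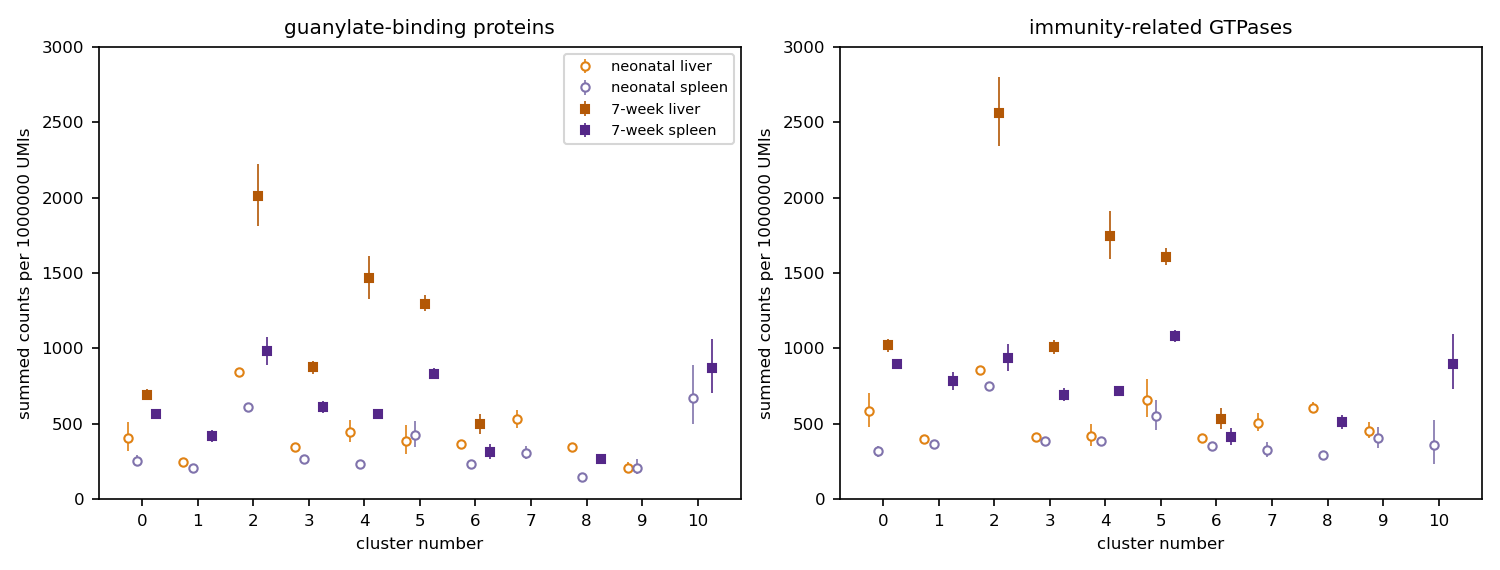
Summed level of the guanylate-binding proteins (left) and the immunity-related GTPases (right) in each cluster with at least 50 cells, by library, with exact 95% Poisson intervals (counting error only). In every cluster with both ages of a tissue, the 7-week value is above the neonatal one.

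Of the receptor kinases, Jak1 was at 218 CPM in liver and 276 in spleen at 12 days, and 346 in liver and 338 in spleen at 7 weeks, and Jak2 at 17.8, 15.2, 23 and 21.2 CPM in that order. Socs1, a feedback inhibitor of the pathway, was lower in liver, at 70.6 CPM against 117 in spleen at 12 days and at 99.7 against 142 at 7 weeks. Ifng itself followed tissue, at 19.4 CPM in neonatal and 17.3 in 7-week liver against 3.45 and 5.37 in spleen. Its liver ratio was 5.62 [4.55 to 7.00] at 12 days and 3.22 [2.45 to 4.23] at 7 weeks.

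Over the list of gamma signalling and other gamma targets, 5 of 22 measured genes were higher and 1 lower in liver at 12 days. Of all genes 7.92% and 3.76% were. At 7 weeks 4 of 23 were higher and 0 lower in liver, against 5.22% and 3.04% of all genes. In the age comparisons 8 of 23 were lower and 1 higher in liver, against 16.4% and 14.7% of all genes. In spleen 9 of 21 were lower and 1 higher, against 11.8% and 9.41%. The 1 higher gene was in both cases Irf8, at 111, 38.0, 36.1 and 24.1 CPM in the order above. Ly6a, the Sca-1 antigen, had a liver over spleen ratio of 3.69 at 12 days and of 1.66 at 7 weeks. The chemokine Cxcl10 was at 46.8 CPM in 7-week liver and 9.46 in 7-week spleen, and was 6.67-fold lower [5.58 to 7.98] in neonatal than in 7-week liver. Bst2, a restriction factor, was 2.92-fold lower in neonatal than in 7-week liver, and Cybb, an oxidase subunit, 4.13-fold lower in neonatal than in 7-week spleen.

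The type I interferon list moved with age in the same direction: 30 of 34 measured genes were lower in neonatal than in 7-week liver and 26 of 31 in spleen. Of all genes, 16.4% in liver and 11.8% in spleen were lower. Oas1a, an RNA sensor, was 11.8-fold lower [9.68 to 14.4] in neonatal liver and 11.6-fold lower [9.32 to 14.7] in neonatal spleen. Oas3 (11.7-fold) and Ifit3b (9.61-fold) were also among the lowest in liver, and Ifit3 (7.75-fold) and Ifit3b (5.51-fold) in spleen. Between tissues at 7 weeks 14 of 34 were higher in liver, against 5.22% of all genes. They were led by Rsad2 at 2.55-fold, Oas3 at 2.53-fold and Ifit3b at 2.46-fold. At 12 days 1 of 24, Ifi209, was higher in liver and 2, Slfn5 and Slfn1, were lower, against 7.92% and 3.76% of all genes.

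Further interferon-inducible GTPases outside the list followed the age difference, with 5 of 5 measured genes lower in neonatal than in 7-week liver and 3 of 3 in spleen. Of all genes, 16.4% in liver and 11.8% in spleen were lower. The other genes of the 9 in this further list stayed under 10 CPM. A gene low at 12 days enters such a count only through its 7-week level. Gm4070 was at 29.0, 17.4, 96.5 and 50.4 CPM in the order above. Gm4951 was at 0.104 CPM in neonatal and 11.5 in 7-week liver, a difference of 111-fold [36.7 to 550] that rests on few neonatal UMIs. Of the list of MHC class I and peptide loading genes, 2 of 15 were lower in neonatal than in 7-week liver and 3 of 15 in spleen, against 16.4% and 11.8% of all genes. H2-Q6 was at 104 CPM in neonatal and 241 in 7-week spleen, and H2-T23 at 111 in neonatal and 229 in 7-week liver.

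The list of constitutive proteasome and other activator genes went the other way with age from the GTPases. Its 16 genes summed to 3831 CPM in liver and 3691 in spleen at 12 days, and 2751 in liver and 2901 in spleen at 7 weeks. All 16 had ratios above 1 at 12 days over 7 weeks in both tissues, 5 of them at least 1.5-fold in liver and 0 in spleen. Of all genes, 14.7% in liver and 9.41% in spleen were higher by at least 1.5-fold. Psma6 was 1.63-fold higher [1.52 to 1.76] and Psma4 1.60-fold higher [1.5 to 1.72] in neonatal than in 7-week liver.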

How the data were processed

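Each library is 1 matrix of raw UMI counts per gene and barcode, as the authors deposited it. The file headers name Cell Ranger 4.0.0. The submitters' processing notes name mm10 and Seurat 4.0.2. The annotation release and counting options are not given in the sources used here. Barcodes under 500 genes or over 10% mitochondrial UMIs were removed. The automatic doublet threshold of Scrublet had not worked, so the highest scores were removed at 0.8% per 1000 cells. Cells with 3 or more markers of 1 non-T lineage were removed, a rule chosen after the data were seen. All cells of the dendritic-like cluster 12 were removed with them. Together these were 55 and 93 cells in liver and spleen at 12 days, and 4 and 30 at 7 weeks. UMIs were summed per library and scaled to CPM. Clustering used scanpy 1.11.5 with Leiden (leidenalg 0.10.2, resolution 1, 2000 variable genes, 30 components, 15 neighbours), without batch integration. Clusters that come mostly from 1 library may therefore reflect the library. TMM factors came from edgeR 4.0.16. Positions are from GENCODE M21 on GRCm38, and promoters from RefSeq.

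The ratio and interval calculation was tested on simulated data. The rule for values in every library was up to 4 genes of each role group with the largest log2 ratios and genes at 2-fold or more. The text goes beyond it and gives all 33 genes. From each further list and comparison up to 3 genes were named, most with the values or ratio of that comparison only, and Ifng, Jak1, Jak2 and Socs1 always. A result on 1 further gene is not reported here. The genes and lists were chosen with earlier results of these data known. Cxcl11, Mx1, Mx2, Gbp11 and Gm12250 were not analysed here. Median depth was 4413 and 4464.5 UMIs per cell in liver and spleen at 12 days, and 2649 and 2905 at 7 weeks, and the intervals show the precision this gives.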

Additional observations from a re-analysis of the deposited data

Results flagged for a closer look

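Some immunoproteasome ratios lay on opposite sides of 1 in the 2 tissues or at the 2 ages, a difference that was not tested. The liver over spleen ratio of Psmb8 was 1.04 at 12 days and 0.966 at 7 weeks, and that of Psme1 1.11 and 0.963. The ratio of 12 days over 7 weeks was 1.04 in liver and 0.968 in spleen for Psmb8, 1.03 and 0.899 for Psme1, and 1.15 and 0.974 for Psme2.

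The barcodes left out for markers of another lineage also held GTPase UMIs. The 17 GTPases summed to 1068 CPM in liver and 637 in spleen at 12 days, and 979 in liver (12 UMIs in 4 barcodes) and 945 in spleen at 7 weeks.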

How the results depend on the processing

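Alternatives were other cell filters, all barcodes, no doublet removal, cells with a Foxp3 UMI, thinning to 1000 UMIs, other scalings and minimum levels, and leaving out cycling, Foxp3-low, interferon-stimulated or low-UMI clusters or the 10 highest cells of each library. The low-UMI alternative was chosen after seeing the data. Of 840 recomputed log2 ratios of called genes, 744 moved by less than their interval, 96 moved by more and 0 changed sign. Of 120 recomputed counts, 113 stayed within 1.5 times. In liver over spleen at 12 days, the 13 higher genes became 8 at a minimum of 25 CPM and 8 at a ratio of at least 2. In liver over spleen at 7 weeks, the 15 became 3 at a ratio of at least 2 and 3 without the interferon-stimulated cluster. In neonatal over 7-week liver, the 20 lower genes became 13 at a ratio of at least 2 and 11 without that cluster, where 1 gene was higher in place of 0. That cluster was defined with these genes, and leaving it out removed 85 and 38 cells of liver and spleen at 12 days and 978 and 959 at 7 weeks. Totals without abundant gene classes shifted the median of all genes by up to -0.07 on the log2 scale. The 7-week liver library had the fewest UMIs and the widest intervals. No paired analysis was possible because each group had 1 library.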
